A study of Arabidopsis thaliana with 18 samples.

Results

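The comparison described here asks whether tfl1-1 seedlings of Arabidopsis thaliana respond to a warmer growth temperature in the same way as wild-type Columbia seedlings (WT). It is a difference of differences: the 23 °C minus 16 °C response of tfl1-1 minus the 23 °C minus 16 °C response of WT. A positive value means that a transcript went further up, or less far down, with warmth in tfl1-1 than in WT, and a negative value means the opposite. It uses 12 of the 18 arrays of the study, 3 in each of 4 groups, which were chosen by their labelled genotype and temperature. All seedlings were grown for 10 days on mineral agar under continuous white light, after 3 days of cold treatment of the seed at 4 °C, so 16 °C and 23 °C are both ambient growth temperatures and neither group was shifted from one to the other. The remaining 6 arrays, of elf3-7 at both temperatures, served to estimate the spread and as a second mutant for comparison. Every group holds 3 biological replicates (A, B and C), each with an RNA preparation of its own. Whole seedlings were measured, so roots, leaves and shoot tips were mixed.

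TERMINAL FLOWER 1 (TFL1) belongs to the same family of phosphatidylethanolamine-binding proteins as the flowering promoter FT, and it acts in the shoot meristem as a repressor of flowering. Loss of TFL1 makes plants flower early and ends the inflorescence in a flower. Plants at a warmer ambient temperature usually flower sooner and elongate more, while cold-protective transcripts are high in cool-grown plants. TFL1 and ELF3 were not analysed here, since no probe set was named as either, and the genotypes are taken from the labels alone. The root gene PYK10 (means of 11.65 to 12.23 in the 4 groups) and the leaf gene LHCB4.2 (12.33 to 12.73) were both high, as roots and leaves were both sampled. The other measured root markers, EXPA7 and EXPA18, were lower. Averaged over all 3 root markers, levels were 7.25 in WT and 7.37 in tfl1-1 at 16 °C, and 6.26 and 6.31 at 23 °C. Values are log2 expression values, on which a difference of 1 is a doubling.

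One of the 12 arrays stood apart. The tfl1-1 23 °C array of replicate C had a mean correlation of 0.959 with the other arrays of its group and a root mean square distance from them of 0.63 log2 units, against 0.21 to 0.45 for the other 11 arrays. For the control probe sets of actin and GAPDH, the excess of the 3′ over the 5′ end, which grows as RNA or its labelled copies become shorter, was 2.74 log2 units on that array and 1.11 to 2.21 on the others. All 4 replicate C arrays also had brighter spiked Bacillus controls (4.81 to 5.72) than the 8 arrays of A and B (3.14 to 3.27). In the difference of differences, the Bacillus controls came to -0.01 in A, 0.03 in B and 1.63 in C, so their brightness in C did not cancel. The 3′ over 5′ excess came to -0.17 in A, 0.52 in B and 0.84 in C, and the 25S ribosomal RNA control to -1.45, -3.15 and 3.70. Their part in the values below was not tested. Results are therefore given per replicate letter, each letter being 1 array from each of the 4 groups, and the main ones also without the array that stood apart.

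No probe set passed the test for a different warm response in tfl1-1. Of 22746 probe sets, 0 (0%) passed an adjusted p under 0.05 in limma for the difference of differences. At an unadjusted p under 0.05 there were 821 (3.61%), of which 341 (1.5%) were above 0 and 480 (2.11%) below 0. At an unadjusted p under 0.01 there were 143 (0.629%). Both shares are smaller than the thresholds, which are the shares expected from independent tests without any true difference. This depended on the fit, as the main fit leaves deviations shared by replicate C in its spread. At an unadjusted p under 0.05 in limma there were 1461 with the letter as a block and 1432 with A and B alone. Without the tfl1-1 23 °C array of replicate C there were 1477. These shares exceed that threshold, so the small shares do not show that no response differed. Since no probe set passed the adjusted test, the unadjusted p values below order the values and do not mark changes. The smallest unadjusted p was 6.48e-05, whereas the first step of the Benjamini-Hochberg adjustment over this many probe sets needs 2.2e-06. The median standard error (SE) of a difference of differences was 0.23, with 0.14 and 0.47 at the 10th and 90th percentiles, and the median half-width of a 95% confidence interval was 0.49. For 17608 probe sets (77.4%) that interval lay within a doubling in either direction. The estimate itself reached a doubling for 192 probe sets (0.844%), 83 of them above 0 and 109 below.

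Both genotypes responded to warmth, mostly in the same direction. In WT, 644 probe sets (2.83%) rose and 905 (3.98%) fell at 23 °C, and in tfl1-1, 906 (3.98%) rose and 1178 (5.18%) fell, at an adjusted p under 0.05 in limma. Without the tfl1-1 23 °C array of replicate C these totals went from 1549 to 2483 in WT, through the pooled spread, and from 2084 to 4344 in tfl1-1. With another single array left out they were as low as 351 in WT (without WT 16 °C B) and 493 in tfl1-1 (without tfl1-1 16 °C A), so the overlap below holds for these 18 arrays. Both lists shared 842 probe sets, which is 54.4% of the WT calls and 40.4% of the tfl1-1 calls, and 0 of them had opposite signs. Of the 707 called in WT alone, 685 had the same sign in tfl1-1, and of the 1242 called in tfl1-1 alone, 1191 had the same sign in WT. The difference of differences had an unadjusted p under 0.05 for 107 of the 707 (15.1%) and 274 of the 1242 (22.1%), shares that the selection on 1 genotype's call raises by itself. Across the 22746 probe sets, which are not independent, the 2 warm responses had a Pearson correlation of 0.83. It was 0.81 between the A arrays, 0.67 between the B arrays and 0.38 between the C arrays.

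**Figure D1:**
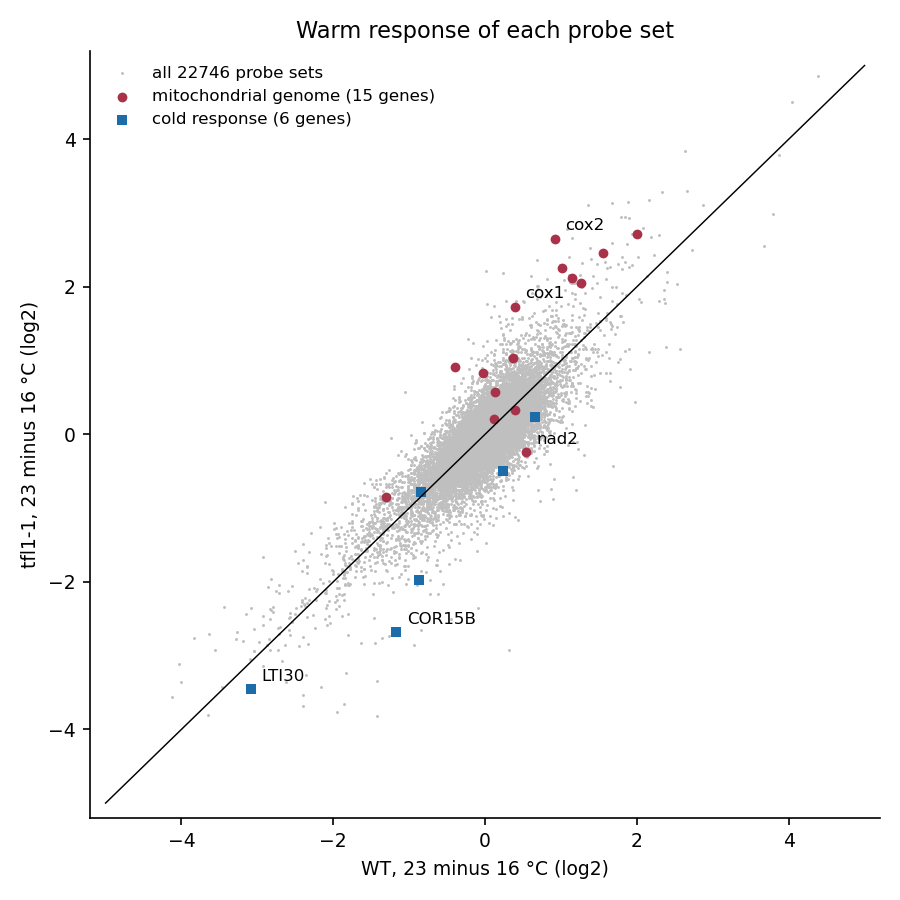
Warm response (23 °C minus 16 °C, log2, mean of 3 arrays against mean of 3) of every probe set in WT (x axis) and tfl1-1 (y axis), with the line of equal response. Genes of the mitochondrial genome (circles) lie mostly above the line, with cox1 at 0.39 in WT and 1.73 in tfl1-1, and 5 of the 6 cold-response genes (squares) lie below it, with COR15B at -1.17 and -2.68.

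To compare the size of the 2 responses on probe sets that neither genotype had selected, those called in elf3-7 were used. The 579 probe sets raised by warmth in elf3-7 had a median response of 0.61 in WT and 0.55 in tfl1-1, and tfl1-1 had the larger response in 250 of them (43.2%). The median difference of differences was -0.04, from 0.13 in A and -0.05 in B to -0.24 in C. Among the 528 lowered in elf3-7 the medians were -0.65 in WT and -0.59 in tfl1-1, tfl1-1 responded more in 179 (33.9%), and the median difference of differences was 0.12, from -0.10 in A and 0.12 in B to 0.34 in C. Without the array that stood apart these medians were 0.01 and -0.02. Replicates A and C gave opposite signs in both lists.

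Each difference of differences comes from 4 means, and where a single mean stood apart among the probe sets with a small unadjusted p, it was most often that of tfl1-1 at 23 °C. A mean was taken to stand apart where its gap to the nearest other mean was wider than the range of the other 3. Among all probe sets, the mean that stood apart was WT at 16 °C in 11.5%, WT at 23 °C in 10.3%, tfl1-1 at 16 °C in 11.0% and tfl1-1 at 23 °C in 12.9%, with more than 1 mean involved in the remaining 54.4%. For the 821 probe sets with an unadjusted p under 0.05 these shares were 11.7%, 11.6%, 13.3% and 25.9%, and for the 143 with an unadjusted p under 0.01 they were 9.09%, 8.39%, 6.99% and 32.9%. More than 1 mean was involved in 37.5% of the 821 and 42.7% of the 143, which was the most frequent case in both. Choosing by p favours probe sets in which some mean is far out, so these shares describe the selected probe sets and were not tested. The tfl1-1 23 °C group is also the one that holds the array that stood apart.

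**Figure D2:**
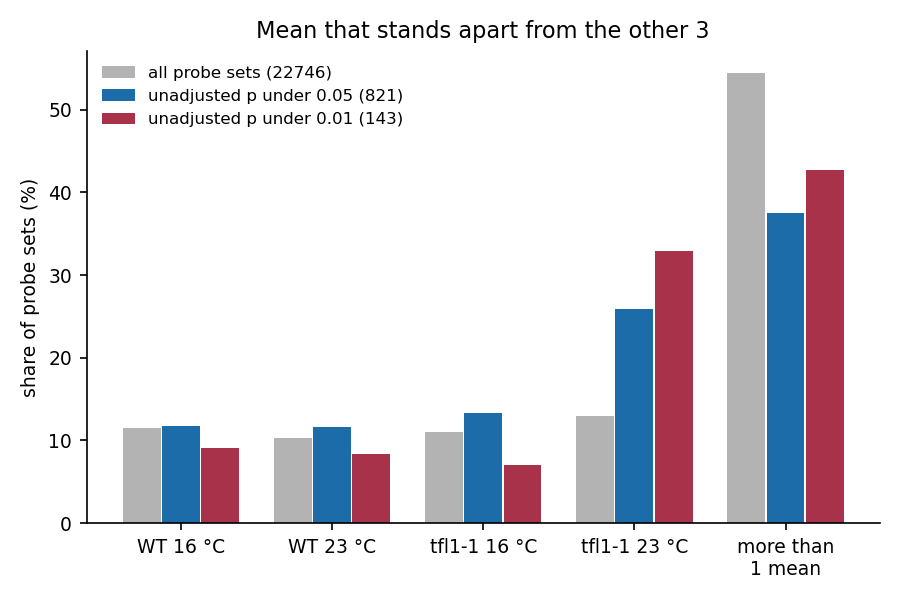
Share of probe sets (%) in which a given group mean stood apart from the other 3, for all probe sets and for those below 2 thresholds of the unadjusted p. The tfl1-1 23 °C mean goes from 12.9% of all probe sets to 25.9% and 32.9% of the selected ones, while the other single means stay at or below 13.3%.

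Transcripts of the mitochondrial genome made up the group with the highest median difference. This genome encodes subunits of the respiratory chain (the nad genes for complex I, cox1 and cox2 for cytochrome c oxidase), proteins that mature cytochrome c (the ccb genes) and the intron maturase matR. All 15 genes of it that are named on the array were measured. The difference of differences was above 0 for 13 of 15, and above 0 in each of A, B and C for 9 (60.0%, against 12.7% of all probe sets), but 0 of 15 passed the adjusted test. The unadjusted p was under 0.05 for 4 of them, 3 above 0 (against 1.5% of all probe sets) and 1 below (against 2.11%). The median was 0.79, with 0.47 in A, 1.08 in B and 1.13 in C, where the median of all probe sets was -0.02, 0.00 and -0.01. Without the array that stood apart it was 0.87. In the separate genotypes, 3 of the 15 rose with warmth in WT (against 2.83% of all probe sets) and 8 in tfl1-1 (against 3.98%). Averaged over the 15 genes, levels were 4.83 ± 0.11 in WT at 16 °C, 5.37 ± 0.23 in WT at 23 °C, 4.48 ± 0.08 in tfl1-1 at 16 °C and 5.73 ± 0.12 in tfl1-1 at 23 °C (SD, n = 3 arrays each). So tfl1-1 had both the lowest mean, at 16 °C, and the highest, at 23 °C.

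The transcript of cox1, a catalytic subunit of cytochrome c oxidase, had the smallest unadjusted p of the 15. Its level was 6.45, 6.43 and 6.33 in WT at 16 °C and 7.26, 6.63 and 6.48 in WT at 23 °C (replicates A, B and C). In tfl1-1 it was 5.47, 5.94 and 5.34 at 16 °C and 7.44, 7.40 and 7.11 at 23 °C. The 3 tfl1-1 arrays at 16 °C lay below all 9 others, and the tfl1-1 arrays at 23 °C overlapped the WT arrays of that temperature only at replicate A of WT. Warmth raised cox1 in tfl1-1 by 1.73 ± 0.24 (3.32-fold, adjusted p = 0.00162 in limma), and the WT difference was 0.39 ± 0.24 (adjusted p = 0.379). The difference of differences was 1.34 ± 0.34 (SE; 95% interval 0.61 to 2.08; limma, unadjusted p = 0.00144), with 1.15 in A, 1.26 in B and 1.62 in C.

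The cox2 gene encodes the subunit that receives electrons from cytochrome c. Its level was 4.33, 4.18 and 4.34 in WT at 16 °C, 6.20, 4.94 and 4.46 in WT at 23 °C, 3.72, 3.80 and 3.81 in tfl1-1 at 16 °C and 7.37, 6.14 and 5.75 in tfl1-1 at 23 °C. The warm groups overlapped, with replicate A highest in both genotypes, and the tfl1-1 arrays of 16 °C were below all others. Its difference of differences was 1.73 ± 0.58 (limma, unadjusted p = 0.00932), the highest of the 15, and near-equal in A (1.77), B (1.58) and C (1.83). Warmth raised it by 2.65 log2 units in tfl1-1 (adjusted p = 0.0027 in limma), from a dim mean of 3.78, while the WT difference of 0.92 did not pass (adjusted p = 0.199).

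Among the complex I genes, nad9 rose with warmth in both genotypes, by 1.55 in WT (adjusted p = 0.00519 in limma) and 2.46 in tfl1-1 (adjusted p = 1.46e-04). Its arrays at 16 °C lay between 3.64 and 4.07, whereas those at 23 °C were 6.01, 5.09 and 5.57 in WT and 6.44, 6.34 and 5.88 in tfl1-1. The difference of differences was 0.91 ± 0.36 (limma, unadjusted p = 0.022). For nad4 it was 1.31 ± 0.69, made by the tfl1-1 16 °C mean of 7.53, which stood apart below the other 3. Against the rest, nad2 had a difference of differences of -0.78 ± 0.36 (limma, unadjusted p = 0.0453), with -0.68, -0.70 and -0.96 in A, B and C, and its WT 23 °C mean of 4.61 stood apart from the other 3 (4.06 to 4.30). The nad2 and nad1 messages are each joined from separate transcripts, and different probe sets of 1 gene did not move alike: the 7 probe sets of nad1 ran from 0.04 to 1.24.

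**Figure D3:**
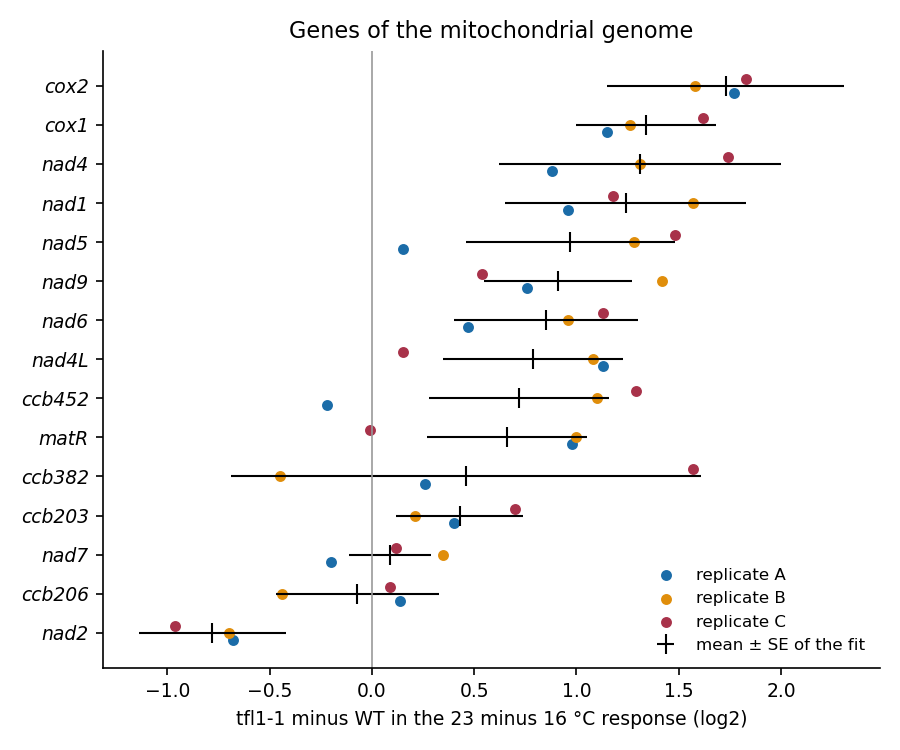
Difference of differences (log2; tfl1-1 minus WT in the 23 °C minus 16 °C response) of the 15 genes of the mitochondrial genome, as the mean with its SE (black) and for each replicate letter, which is 1 array per group. Of the 15 genes, 9 lie right of 0 in all 3 letters, and nad2 lies left of 0 in all 3.

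Several limits apply to these 15 genes. They lie on 1 genome and were read on the same arrays, so they are not 15 independent observations. The same holds for the 69 plastid genes below. Arabidopsis carries a large near-identical copy of the mitochondrial genome in its nuclear DNA, and the probe sets cannot tell transcripts of the copies apart. Of the 22 probe sets behind the genes, 10 had a WT 16 °C mean below 4, near the level of the Bacillus controls in A and B, and log2 differences from such dim values are compressed, as those of cox2 and nad9 in tfl1-1 (means of 3.78 and 3.76 at 16 °C) may be. In whole seedlings, fewer cells of a type and less RNA per cell cannot be told apart.

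Plastid transcripts, which encode photosystem, ribosome and RNA polymerase subunits of the chloroplast, shared the sign but not the stability. The median over 69 genes was 0.33, with 63 above 0, 26 of them in each of A, B and C (37.7%, against 12.7% of all probe sets), and 0 passed the adjusted test. The letters disagreed, at 0.44 in A, -0.02 in B and 0.68 in C, and without the array that stood apart the median was 0.13 with 47 of 69 above 0. The member with the smallest unadjusted p was psbL, a small photosystem II subunit. It measured 9.73, 9.76 and 10.13 in WT at 16 °C, 9.80, 10.04 and 9.98 in WT at 23 °C, 9.62, 9.66 and 9.65 in tfl1-1 at 16 °C and 10.30, 10.35 and 10.22 in tfl1-1 at 23 °C. The tfl1-1 arrays at 23 °C lay above all others, and the difference of differences was 0.58 ± 0.23 (limma, unadjusted p = 0.0213). Within tfl1-1, psbL and psbF rose with warmth (0.65 and 0.49, adjusted p = 0.023 and 0.0247 in limma), which is a share of the 69 below the 3.98% of all probe sets that rose in tfl1-1. The psaA gene, for a photosystem I core protein, had the lowest value, -0.66, from 1.10, -2.55 and -0.53 in the 3 letters.

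Cold-response transcripts had the lowest median of the lists with at least 3 measured members, with higher levels in tfl1-1 at 16 °C. Of 20 listed genes, 6 were measured. They had 5 members below 0, 2 of them in each of A, B and C (33.3%, against 15.2% of all probe sets), a median of -0.57 (A -1.07, B -0.36, C -0.59) and 0 that passed the adjusted test. Averaged over the 6 genes, levels were 7.51 ± 0.20 in WT and 8.44 ± 0.07 in tfl1-1 at 16 °C, and 6.66 ± 0.23 and 6.92 ± 0.39 at 23 °C (SD, n = 3 arrays each). The median was -0.28 without the tfl1-1 23 °C array of replicate C and -0.18 without the WT 23 °C array of replicate A. COR15B (AT2G42530) encodes a chloroplast protein that protects membranes during freezing. Its level was 6.33, 7.21 and 8.01 in WT at 16 °C and 8.63, 8.50 and 8.64 in tfl1-1 at 16 °C, and at 23 °C it was 5.26, 6.13 and 6.63 in WT and 4.86, 6.65 and 6.22 in tfl1-1. At 16 °C the groups did not overlap, and at 23 °C they did. The tfl1-1 16 °C mean stood apart, and the difference of differences was -1.50 ± 0.65 (95% interval -2.89 to -0.11; limma, unadjusted p = 0.0361), with -2.69, -0.77 and -1.05 in A, B and C. Warmth lowered COR15B in tfl1-1 (6.4-fold, adjusted p = 0.00433 in limma), and the 2.26-fold WT difference did not pass (adjusted p = 0.143). The difference between the genotypes at 16 °C, 1.41, did not pass either (adjusted p = 0.518).

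Its neighbour in sequence COR15A (AT2G42540) measured 4.64, 5.47 and 5.91 in WT at 16 °C against 7.04, 6.42 and 6.54 in tfl1-1, again without overlap, and 3.96, 4.28 and 5.17 against 4.19, 5.29 and 4.62 at 23 °C. Its difference of differences was -1.09 ± 0.54, but 0.06 in B. The dehydrin LTI30, with the strongest warm decrease of the list (-3.09 in WT and -3.46 in tfl1-1, adjusted p = 8.15e-04 and 1.46e-04 in limma), gave only -0.38 ± 0.50, and the dehydrin COR47 gave 0.06 ± 0.49. COR27, a clock-controlled cold gene, gave -0.73 ± 0.75, and -0.09 without the array that stood apart.

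Beyond the lists, the genes with a symbol, the same sign in all 3 letters and an unadjusted p under 0.01 are given as values, since none passed the adjusted test (adjusted p = 1.0 for each in limma). Besides cox1 and cox2, 3 were above 0. PSF2 (AT3G12530), a subunit of the GINS complex that works at DNA replication forks, was at 5.17, 5.54 and 5.53 in WT at 16 °C, 5.09, 4.87 and 5.32 in WT at 23 °C, 4.92, 4.90 and 5.04 in tfl1-1 at 16 °C and 5.99, 5.89 and 5.03 in tfl1-1 at 23 °C. Replicates A and B of warm tfl1-1 exceeded all other arrays and C did not, and the difference of differences was 1.00 ± 0.29 (1.15, 1.66 and 0.20 by letter). OASA2, a member of the family of cysteine-synthesising O-acetylserine lyases, was at 5.24, 5.12 and 4.83 in warm tfl1-1 and between 3.92 and 4.43 on the other 9 arrays. Its value was 0.87 ± 0.23 (limma, unadjusted p = 0.00199), and the tfl1-1 23 °C mean stood apart. NDB3, an alternative NAD(P)H dehydrogenase of the mitochondrial membrane, gave 0.39 ± 0.13 with more than 1 mean involved.

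Below 0 were 6 such genes. CRR42 (AT5G20935) is needed for the chloroplast NAD(P)H dehydrogenase-like complex. It was at 8.26, 8.16 and 8.32 in WT at 16 °C and 7.53, 7.97 and 8.12 at 23 °C, against 8.50, 8.40 and 8.99 in tfl1-1 at 16 °C and 7.13, 7.32 and 7.77 at 23 °C. The tfl1-1 values spanned the WT range on both sides, and the difference of differences was -0.85 ± 0.26 (-0.64, -0.88 and -1.02 by letter). THIC, which makes the pyrimidine part of thiamine, was at 9.65, 9.98 and 9.71 in warm tfl1-1 and at 10.07 to 10.72 elsewhere, for a value of -0.75 ± 0.22. CHL, the chloroplast lipocalin, was at 9.42, 9.51 and 9.78 in warm tfl1-1 and at 9.75 to 10.28 elsewhere, so that only replicate C overlapped, for a value of -0.52 ± 0.17. For THIC and CHL the tfl1-1 23 °C mean stood apart. GRXC2, a glutaredoxin, gave -0.65 ± 0.19, with the tfl1-1 16 °C mean apart (10.63 against 9.92 to 10.24). GLR3.5, a glutamate receptor-like channel, gave -0.86 ± 0.24, from a WT mean that went from 4.69 to 5.07 with warmth and a tfl1-1 mean that went from 5.10 to 4.62. The cytochrome P450 gene CYP71B25 gave -0.35 ± 0.12, and it is the 1 case of the 6 in which the WT 23 °C mean stood apart (3.42 against 3.12 to 3.26).

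**Figure D4:**
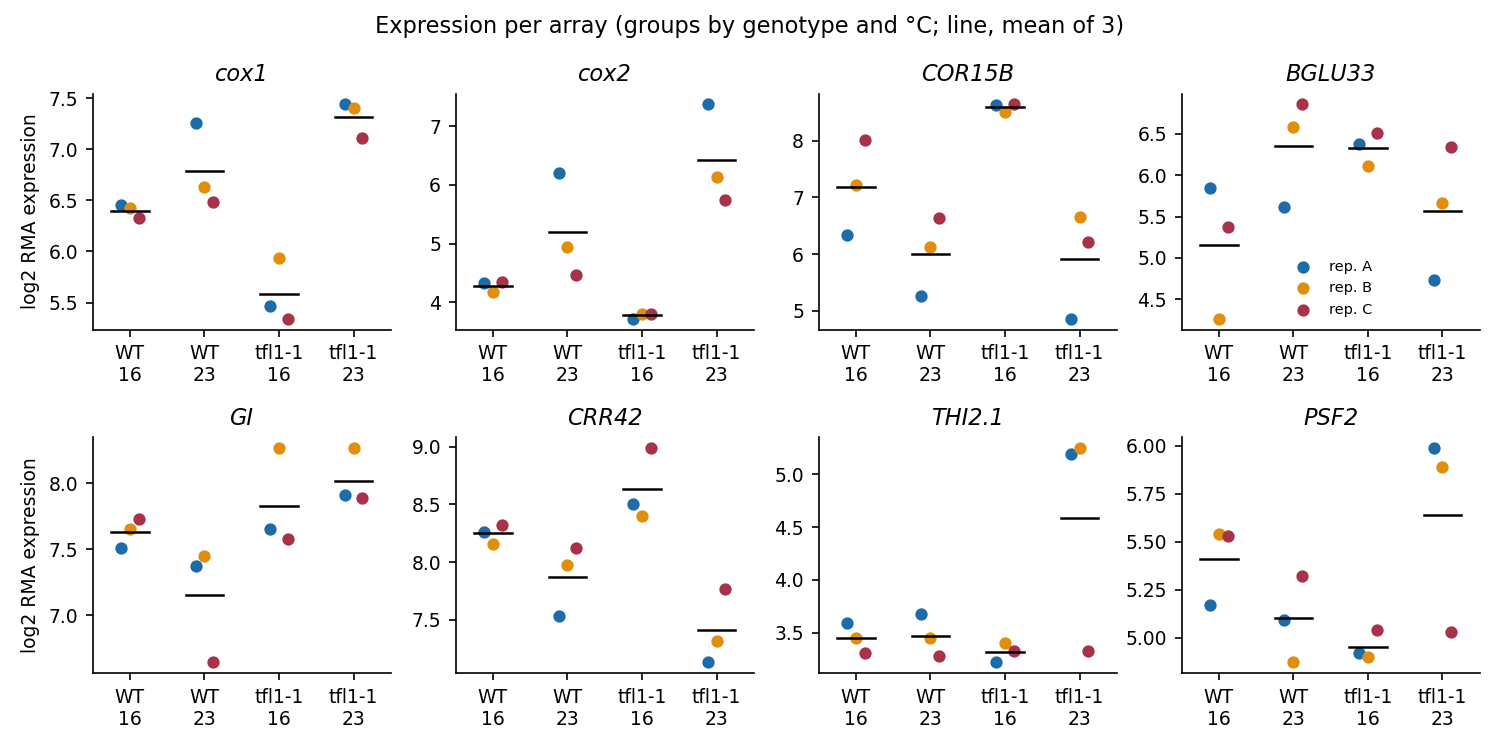
Expression (log2 RMA value) of 8 genes on each of the 12 arrays, by genotype and growth temperature in °C, coloured by replicate letter, with the mean of 3 as a line. In cox1 the tfl1-1 arrays are lowest at 16 °C (5.34 to 5.94), in COR15B they are highest there (8.50 to 8.64), and in THI2.1 2 of the 3 warm tfl1-1 arrays (5.19 and 5.25) exceed all others while replicate C (3.33) does not.

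Flowering genes gave no common direction. Of 27 listed genes 7 were measured: the floral repressors ATC, SMZ and SNZ, the promoters GI, AGL24 and FD, and LD of the autonomous pathway. Their median was -0.01 (A -0.49, B 0.17, C 0.15), 3 were above 0 and 4 below, and 0 passed the adjusted test. The median was -0.31 without the tfl1-1 23 °C array of replicate C, with 2 of 7 above 0, and -0.42 with replicates A and B alone. GI (AT1G22770) links the circadian clock to photoperiodic flowering. It was at 7.51, 7.65 and 7.73 in WT at 16 °C, 7.37, 7.45 and 6.64 in WT at 23 °C, 7.65, 8.27 and 7.58 in tfl1-1 at 16 °C and 7.91, 8.27 and 7.89 in tfl1-1 at 23 °C. At 23 °C tfl1-1 lay above WT without overlap, and the WT 23 °C mean stood apart, through replicate C. The difference of differences was 0.67 ± 0.29 (limma, unadjusted p = 0.0354), with 0.40, 0.20 and 1.42 by letter.

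SMZ and SNZ, related AP2-type repressors of FT, had values below 0 in all 3 letters. SMZ was at 6.47, 5.89 and 6.54 in warm tfl1-1 and between 6.59 and 7.62 elsewhere, so the tfl1-1 23 °C mean stood apart and no other array was as low. Its difference of differences was -0.90 ± 0.46 (limma, unadjusted p = 0.0727). SNZ gave -0.73 ± 0.38, from a WT mean that went from 5.55 to 6.19 and a tfl1-1 mean of 5.95 and 5.86. ATC, the closest relative of TFL1 on the array, was lowered by warmth in WT (-1.83, adjusted p = 0.0377 in limma). In tfl1-1 its warm arrays were at 4.09, 4.87 and 6.18, and the difference of differences was -1.38, 0.54 and 1.60 by letter, 0.25 ± 0.69 in all. AGL24 (0.08 ± 0.37) and FD (-0.01 ± 0.14) were close to 0.

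Growth genes were likewise mixed. The 6 measured genes of auxin, gibberellin and cell expansion had a median of -0.12 (A 0.30, B -0.28, C -0.29). IAA29, an auxin-induced gene often raised in warm or shaded plants, was at 4.58, 5.46 and 4.08 in warm tfl1-1 and between 3.81 and 4.18 on the other 9 arrays. Replicates A and B stood above the rest and C among them, and the value was 0.65 ± 0.33. The gibberellin receptors GID1A, GID1B and GID1C gave -0.48, -0.04 and 0.42, and the expansin EXPA8 gave -0.59 ± 0.64. Among 27 expansins and xyloglucan hydrolases the median was -0.11, with 9 above 0. The 7 tubulins had a median of -0.24, with 6 below 0.

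Heat shock and chaperone genes had a median away from 0 in replicate C. The 7 measured members had a median of 0.31, which was -0.07 in A, -0.11 in B and 1.15 in C, and 0.10 without that array. Hop3, a co-chaperone that links the HSP70 and HSP90 chaperones, was above 0 in all letters, with 0.33, 0.89 and 1.68 by letter and 0.97 ± 0.49 in all. It was at 3.24 to 3.69 on the 6 arrays at 16 °C, 5.53, 4.85 and 4.65 in warm WT and 5.81, 5.29 and 6.15 in warm tfl1-1, and it rose with warmth in both genotypes (1.40 and 2.37, adjusted p = 0.0288 and 0.00209 in limma). Fes1A, another co-chaperone, gave -0.66, -0.75 and 1.10. The ATG8 family, whose proteins coat forming autophagosomes, had 8 of 9 members above 0 and a median of 0.15, but 0.34 in A, 0.48 in B and -0.54 in C. ATG8E alone ran from 1.85 in A to -1.47 in C.

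The beta-glucosidase and cytochrome P450 families had medians near 0. BGLU33, a member of the beta-glucosidase family, had the lowest value of the named list members. It was at 5.84, 4.26 and 5.37 in WT at 16 °C, 5.61, 6.58 and 6.86 in WT at 23 °C, 6.38, 6.11 and 6.51 in tfl1-1 at 16 °C and 4.73, 5.66 and 6.34 in tfl1-1 at 23 °C. The groups overlapped, but all letters were below 0 (-1.43, -2.77 and -1.67), and the difference of differences was -1.96 ± 0.75 (limma, unadjusted p = 0.0198). The other beta-glucosidases ran from -0.72 (BGLU28) to 0.22, and the family median over 21 was -0.02. Of the 26 cytochrome P450 genes, with a median of 0.02, CYP71B26 was at 8.67, 8.92 and 9.23 in warm tfl1-1 and 7.05 to 8.18 elsewhere. Its value was 0.78 ± 0.30 (limma, unadjusted p = 0.0205), and the tfl1-1 23 °C mean stood apart. The 48 UDP-glycosyltransferases had a median of -0.15, with UGT71B1 at -0.51 ± 0.18 (limma, unadjusted p = 0.0129) but -0.01 in C.

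The 4 measured of 12 listed genes of carbon metabolism and starvation had a median of -0.36 (A -0.03, B -0.33, C -0.26), and 0 passed the adjusted test. Of these, 3 were below 0 in each of A, B and C, against 15.2% of all probe sets: formate dehydrogenase (FDH) at -0.77 ± 0.64, DPE1 at -0.56 ± 0.26 and APL3, a subunit of the starch-synthesis enzyme ADP-glucose pyrophosphorylase, at -0.16 ± 0.28. The member above 0 was isocitrate lyase (ICL), an enzyme of the glyoxylate cycle that turns stored lipid into sugar in seedlings. Its levels were lowest in tfl1-1 at 16 °C, at 4.76, 5.78 and 5.17. The WT arrays of 16 °C were at 7.40, 7.39 and 6.38, and those of 23 °C at 8.15, 8.08 and 8.38 in WT and 8.85, 7.10 and 7.74 in tfl1-1. The 16 °C groups did not overlap, yet the genotype difference there, -1.82, did not pass (adjusted p = 0.528 in limma). The difference of differences was 1.52 ± 0.88 and came mostly from replicate A (3.35, against 0.63 in B and 0.57 in C). DPE1, a plastid enzyme of starch breakdown, had an unadjusted p of 0.0485 in limma, and it fell with warmth in tfl1-1 (-0.76, adjusted p = 0.0205). SAG101, a partner of the immune regulator EDS1, gave -0.43 ± 0.18 (limma, unadjusted p = 0.0309), from a tfl1-1 16 °C mean that stood apart.

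Of 5 plant defensins, 3 changed with temperature in WT (2 rose and 1 fell) and 4 in tfl1-1 (2 rose and 2 fell). Of all probe sets, 2.83% rose and 3.98% fell in WT, and 3.98% rose and 5.18% fell in tfl1-1. Of the 5 defensins, 0 passed the adjusted test for a difference between these responses. PDF1.2, a jasmonate-responsive antimicrobial peptide, rose by 3.79 in WT and 2.99 in tfl1-1 (adjusted p = 0.00681 and 0.0153 in limma), and the difference of differences was -0.79 ± 0.95. PDF2.5 fell by 3.83 in WT and 2.76 in tfl1-1 (adjusted p = 0.00455 and 0.013). In warm tfl1-1 it was at 3.46 and 3.61 in A and B but 6.33 in C, against 3.15 to 4.14 in warm WT, so its value of 1.07 ± 0.84 was 0.14 without that array. The 6 measured flavonoid and anthocyanin genes had a median of -0.02, and 13 glutathione transferases -0.06. The root markers EXPA7, EXPA18 and PYK10 gave -0.11, -0.11 and 0.02, and the leaf marker LHCB4.2, a light-harvesting protein, 0.21 ± 0.17. Of the floral organ, seed and pollen marker lists no member was named here, so the share of flower tissue could not be checked.

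**Figure D5:**
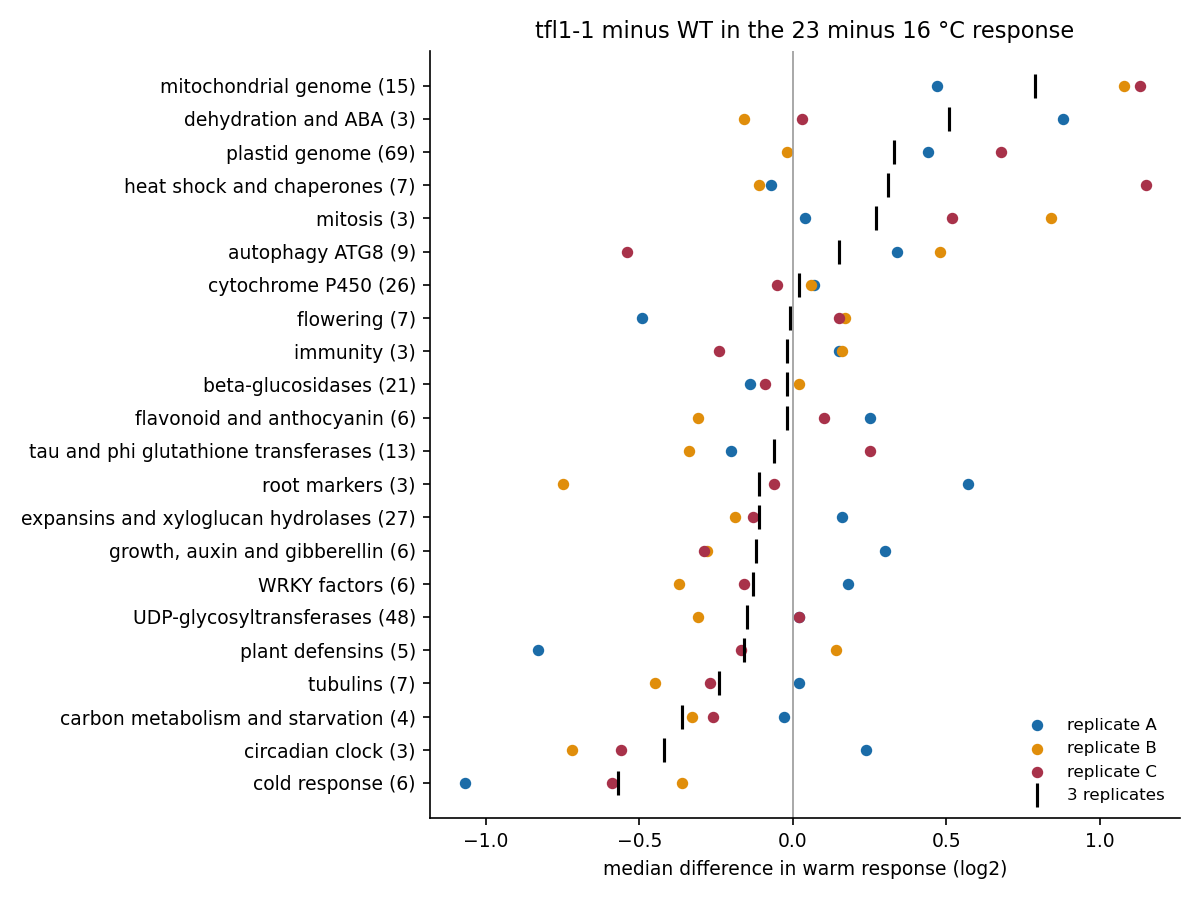
Median difference of differences (log2) of each gene list with at least 3 measured genes (number in brackets), over the 3 replicates (black) and within each letter (colours), with a grey line at 0. The mitochondrial genome is right of the line in all letters (0.47, 1.08 and 1.13) and the cold response left of it (-1.07, -0.36 and -0.59), while heat shock is far from 0 only in replicate C.

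The smallest unadjusted p values belonged to genes outside the lists. Of the 11 probe sets with an unadjusted p under 0.001, 5 name 1 gene, all by locus code alone, and these were picked after their values were seen. AT4G23493 was at 5.04, 4.86 and 5.19 in warm tfl1-1 and at 3.82 to 4.20 on the other 9 arrays, so no array overlapped and the tfl1-1 23 °C mean stood apart. Its difference of differences was 0.97 ± 0.21 (limma, unadjusted p = 3.59e-04). AT5G03900 gave -0.85 ± 0.18, AT1G78995 gave -0.75 ± 0.17 and AT3G46110 gave -0.66 ± 0.16, and in all 3 the tfl1-1 mean was the highest of the 4 at 16 °C and the lowest, or level with the lowest, at 23 °C. AT1G30540 rose with warmth in WT (0.48, adjusted p = 0.00957 in limma) but was -0.09 in tfl1-1, for a value of -0.58 ± 0.13. The very smallest p belonged to the unnamed probe set 252853_at, at 8.66, 8.54 and 8.91 in warm tfl1-1 and 9.17 to 9.85 elsewhere, for a value of -0.97 ± 0.18.

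The count of calls depended on the tfl1-1 23 °C array of replicate C. Without it, 13 of 22746 probe sets (0.0572%) passed, 9 above 0 and 4 below, with 2 warm tfl1-1 arrays assumed to vary like the other groups. In 11 of the 13 the tfl1-1 23 °C mean of all 3 arrays stood apart. A single gene is named for 5 of them, all seen in the data first. THI2.1 (AT1G72260), a thionin with antimicrobial activity induced by jasmonate, was at 5.19 and 5.25 in replicates A and B of warm tfl1-1, 3.33 in C, and 3.22 to 3.68 on the other 9 arrays. Its difference of differences was 1.88 ± 0.19 without that array (adjusted p = 0.0026 in limma) and 1.26 ± 0.50 with it. AT2G21820 was at 6.43, 5.87 and 4.65 in warm tfl1-1 and 3.82 to 4.36 elsewhere, for 2.12 ± 0.34 without that array (adjusted p = 0.0414) and 1.62 ± 0.48 with it. The others were a probe set of nad1 (257323_at; 1.24 ± 0.18 without the array, adjusted p = 0.0233 in limma), PSF2 (1.31 ± 0.20, adjusted p = 0.0282) and AT2G03420 (-0.80 ± 0.13, adjusted p = 0.0414). That nad1 probe set was dim. Its means were 2.91 and 3.15 in WT at 16 °C and 23 °C and 2.93 in tfl1-1 at 16 °C. The Bacillus controls of A and B lay at 3.14 to 3.27. The tfl1-1 23 °C array of replicate C also had the highest 3′ over 5′ excess of the 12, whose part in this was not tested. With replicates A and B alone, where 8 arrays enter the comparison, 0 probe sets passed and 1432 had an unadjusted p under 0.05 in limma.

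Direct comparisons of the genotypes show which genes differed at 1 temperature. At 16 °C, 0 of 22746 probe sets (0%) differed between tfl1-1 and WT in limma, with 1717 at an unadjusted p under 0.05, and at 23 °C 8 (0.0352%) did, 5 higher in tfl1-1 and 3 lower. That count was 745 without the tfl1-1 23 °C array of replicate C, but 0 without that of replicate B and 0 in a fit of the 12 arrays alone (1253 and 1810 at an unadjusted p under 0.05 in limma), so the genes below were not called in those fits. SAT32, named for a role in salt tolerance, is a case of a standing difference. It was at 7.38, 7.37 and 7.59 in WT and 5.38, 4.98 and 5.74 in tfl1-1 at 16 °C, and at 7.70, 8.12 and 7.39 against 5.22, 4.67 and 5.92 at 23 °C, without overlap at either temperature. The 23 °C difference was -2.47 (adjusted p = 0.00979 in limma), that at 16 °C -2.08 (adjusted p = 0.0759), and the difference of differences only -0.38 ± 0.41. The same holds for AT1G43590, a pseudogene in the RefSeq annotation, at 5.49, 5.92 and 6.25 in warm WT and 4.42, 4.73 and 4.28 in warm tfl1-1, with a difference of differences of -0.41 ± 0.30. AT4G28080 and AT1G73480 differed at 23 °C too, by -0.61 and 1.41 (adjusted p = 0.021 for both in limma), and had a difference of differences of -0.47 ± 0.12 and 0.64 ± 0.28.

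Set against the other mutant, no probe set passed for a different warm response in the main fit of all arrays, but some passed in other fits. In the test of the tfl1-1 response minus the elf3-7 response, which uses no WT array, 0 of 22746 probe sets (0%) passed in limma, with a smallest adjusted p of 0.244 and 1284 at an unadjusted p under 0.05. With replicates A and B alone 29 passed, and without the tfl1-1 23 °C array of replicate C 51 did. The 29 included a nad1 probe set (257325_at) at 2.49, THI2.1 at 1.52, AT2G21820 at 2.28 and AT5G01870 at -4.12, whose values in replicate C were 1.36, -0.19, -0.18 and 1.21. Over all replicates, the tfl1-1 response minus the elf3-7 response had a median of 0.99 for the 15 mitochondrial genes, with cox1 at 1.16 and cox2 at 2.16, and of -0.19 for the 6 cold-response genes, with COR15B at -2.15 and COR15A at -0.06. Both comparisons share the 6 tfl1-1 arrays, so these values stand beside those against WT and do not repeat them.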

How the data were processed

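Per the submitters' processing notes, the deposited values are log2 RMA expression values per probe set, from biotin-labelled RNA on an Affymetrix array. The RMA version was not given in the sources used here. Arrays have no read depth, so their number limits the precision. After 64 of 22810 probe sets (controls) were left out, limma 3.58.1 in R 4.3.3 fitted 6 group means over all 18 arrays, with empirical Bayes moderation, two-sided tests and Benjamini-Hochberg adjustment within each comparison. The fit was also run on simulated data with independent noise. These held no shared deviation of replicate C and no array that stood apart, so they cannot show how the fit handles either. Names came from the platform annotation, updated through the RefSeq table of TAIR10.1: 13513 probe sets name 1 gene, 503 several, and 8730 are unnamed here. A gene is shown by its brightest probe set unless another is given. Named are genes with a symbol, equal sign in A, B and C and an unadjusted p under 0.01 (up to 10 per direction), up to 4 members of each of 28 lists by size, and cases stated as seen first. The members and lists were chosen with earlier results of these data known. Lists are described by counts and medians, with no set test. Alternatives were a block, A and B alone, other normalizations, a filter on dim probe sets, array weights, an intensity trend and single arrays left out. Coordinates and sequences are not given. Python 3.11.15, pandas 2.3.3, numpy 2.4.6 and matplotlib 3.10.9 were used.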

Additional observations from a re-analysis of the deposited data

How the results depend on the processing

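The absence of calls for the difference of differences held with replicates A and B alone, the 12 arrays alone, equal medians, quantile normalization, an intensity trend, and without probe sets of a mean below 4. It did not hold with array weights (23 called, 9 of them among the 13 called without the tfl1-1 23 °C array of replicate C) or, in part, with blocks. Same-lettered arrays did not all deviate together (correlations of -0.23 to 0.62), so the letters were not taken as pairs. Those of replicate C did, with correlations of 0.27 to 0.6, and the negative values all involved the tfl1-1 16 °C array of replicate A. The main fit leaves such shared deviations in its spread. The unadjusted p in limma was under 0.05 for 821 probe sets in the main fit and for 1461 with the letter as a block. With the letter as a replicate block 2 probe sets passed, 248744_at (-1.34, adjusted p = 0.0211 in limma) and 252853_at (-0.97, adjusted p = 0.0391), and with replicate C as a batch block 1, 248744_at. Leaving out 1 array gave 0 to 13 calls.

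Against elf3-7, 29 passed in A and B alone, 245 with array weights and 0 to 51 with 1 array left out (51 without tfl1-1 23 °C C, 2 and 1 without elf3-7 23 °C A and B). The warm calls were 3157 in WT and 4012 in tfl1-1 with the letter block, 3196 and 4034 with C as a batch, 2592 and 4970 with A and B alone, and 3546 and 7100 with array weights. With 1 array left out they ran from 351 to 2483 in WT and from 493 to 4344 in tfl1-1. In WT they were 351, 369, 424 and 760 without WT 16 °C B, 16 °C C, 23 °C A and 23 °C B. In tfl1-1 they were 493, 807 and 1190 without its 16 °C arrays A, B and C, and 565, 751 and 4344 without those of 23 °C. Between the genotypes at 23 °C, 29 passed with the letter block, 32 with C as a batch, 193 with A and B alone, 0 in the 12 arrays alone, 1593 with array weights, and 0 to 745 with 1 array left out (0 without tfl1-1 23 °C B). At 16 °C, 336 passed with array weights, 1 each with equal medians, quantile normalization, the filter and the trend, and 0 to 3 with 1 array left out. The cause of these moves was not tested.

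Of 90 named genes, 71 kept the sign of their difference of differences in all 21 alternatives. The list median ran from 0.68 to 1.02 for the mitochondrial genome, from 0.13 to 0.56 for the plastid genome and from -0.84 to -0.18 for the cold response. The alternatives against elf3-7 other than the letter block, and those for pairwise calls, were chosen after seeing the data.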
